A study of Homo sapiens with 15 samples.

Results

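Expression of 10 genes of BMP and activin signalling was followed across HT-1080 libraries. The genes were 4 ligand genes (BMP2, BMP4, BMP6 and INHBA), 3 genes of inhibitors or modulators (GREM1, KCP and SMAD7) and 3 target genes (ID1, ID2 and ID3). Rows of the count table were taken by their Ensembl identifiers, which gave 10 of the 60670 genes of the table. A filter on low counts kept 9 of the 10, against 18563 of all genes, and GREM1 did not pass it. The genes were listed with results of these libraries already known, among them the change of KCP with GNF-7 at 24 h, its difference between the times and the change of BMP6 between 6 h and 24 h in vehicle. The values of all 10 genes are therefore given as a description, with standard errors (SE) and intervals but without p-values.

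BMPs and activins are secreted dimers of the TGF-beta family that bind pairs of type I and type II receptor kinases on the cell surface. BMP receptors phosphorylate SMAD1, SMAD5 and SMAD9, activin and TGF-beta receptors phosphorylate SMAD2 and SMAD3, and both sets enter the nucleus with SMAD4. ID1, ID2 and ID3 are classical targets of the BMP branch and encode helix-loop-helix proteins that bind E proteins and keep them off DNA, while SMAD7 is induced by the pathway and shuts its receptors down. In fibroblast-like cells activins are also known as secreted products of senescence.

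HT-1080 is an established line of human fibrosarcoma cells, kept here under 5% oxygen and 5% carbon dioxide in medium with tet-free serum. The cycling group was given DMSO, the vehicle, and carries the label 6 h. The senescent groups had first expressed dominant negative TRF2, a mutant form of a telomere-capping protein, for 6 days, and were then given DMSO or 1 uM of the kinase inhibitor GNF-7, for 6 h or 24 h. The title of the series ties the action of GNF-7 on senescent cells to the kinase GCN2. Each of the 5 groups held 3 libraries labelled as biological replicates. Cycling cells with GNF-7 and cycling cells at 24 h were not analysed here, so a difference between senescent and cycling cells was measured in vehicle at 6 h only. The promoter that drives the TRF2 construct and whether the line is a clone are not given in the sources used here.

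Total counts ran from 25991007 to 32323393 per library. TERF2, the gene of TRF2, checked the labels with 58.2 ± 3.65 CPM (counts scaled to library size, mean ± SD, n = 3) in cycling cells. In senescent cells it was at 287 ± 8.17 and 220 ± 7.26 CPM in DMSO at 6 h and 24 h. With GNF-7 it was at 222 ± 8.6 and 132 ± 5.38 CPM at these times. TERF2 thus fell with GNF-7 at 6 h and 24 h and with time in DMSO, with log2 fold changes of -0.37, -0.73 and -0.39. The part of these falls in the other results was not tested. Of 6 mesenchymal markers, all were above 1 CPM in every cycling library and 5 in every senescent library, with summed levels of 6330 to 11800 CPM, lowest in GNF-7 at 24 h. Sums of 6 epithelial markers were 3.92 to 5.64 CPM with GNF-7 at 24 h and 1.05 to 2.37 CPM in the other groups. Those of 6 haematopoietic markers were 2.32 to 4.87 CPM and of 6 endothelial markers 1.29 to 3.14 CPM over all libraries. The part of these marker levels in the results was not tested. Mitochondrial genes took 3.75% to 5.01% of counts in cycling cells, 11.2% to 12.4% and 15.1% to 18.7% in senescent cells in DMSO at 6 h and 24 h, and 13.2% to 15.3% and 22.6% to 24.1% with GNF-7. Leaving those genes out of the scaling changed no call and no direction among the 9 genes.

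In senescent against cycling cells KCP and BMP2 were 8.67-fold and 8.71-fold higher, INHBA and ID2 were also above 2-fold, and ID1 was lower. GNF-7 for 6 h raised KCP and BMP6 and lowered ID1 and ID3. After 24 h of GNF-7, KCP stood at 125 ± 6.51 CPM (n = 3) against 6.17 ± 1.17 CPM in DMSO, BMP6 was again above DMSO, and INHBA, ID1, ID2 and ID3 were below it. A gene is said to have risen or fallen where the edgeR adjusted p, taken over all 18563 genes tested, was under 0.05. By that rule 8 of the 9 tested genes were called in senescence (7 higher, 1 lower), where 70.0% of all genes were called (35.6% higher, 34.4% lower). GNF-7 at 6 h gave 4 of 9 (2 higher, 2 lower) beside 39.3% of all genes (17.9% higher, 21.4% lower), and GNF-7 at 24 h gave 9 of 9 (4 higher, 5 lower) beside 58.9% (29.3% higher, 29.7% lower). Between DMSO at 6 h and at 24 h, 5 of 9 fell and none rose, beside 18.5% of all genes (9.26% higher, 9.29% lower). Of the genes called there 49.9% were higher, or 12.5% with libraries scaled by total counts, and under that scaling the 5 falls were still called. The median log2 fold change of the 9 genes was 0.85 in senescence, -0.10 and -0.43 for GNF-7 at 6 h and 24 h and -0.32 with time in DMSO, where the medians of all genes tested were 0.06, 0.01, 0.04 and 0.01. Of all genes tested, 71.5% had no overlap between the 3 and 3 libraries in senescence, 47.7% and 63.2% with GNF-7 at 6 h and 24 h, 32.9% with time in DMSO and 76.6% for GNF-7 at 6 h against cycling cells, so that a lack of overlap is common here. Nothing is read from these counts, since the genes were chosen with such results known. The comparisons of senescence, of GNF-7 at 6 h and of time in DMSO share the senescent DMSO libraries of 6 h. Lower levels per cell and fewer cells that express a gene cannot be told apart in these bulk libraries.

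**Figure D1:**
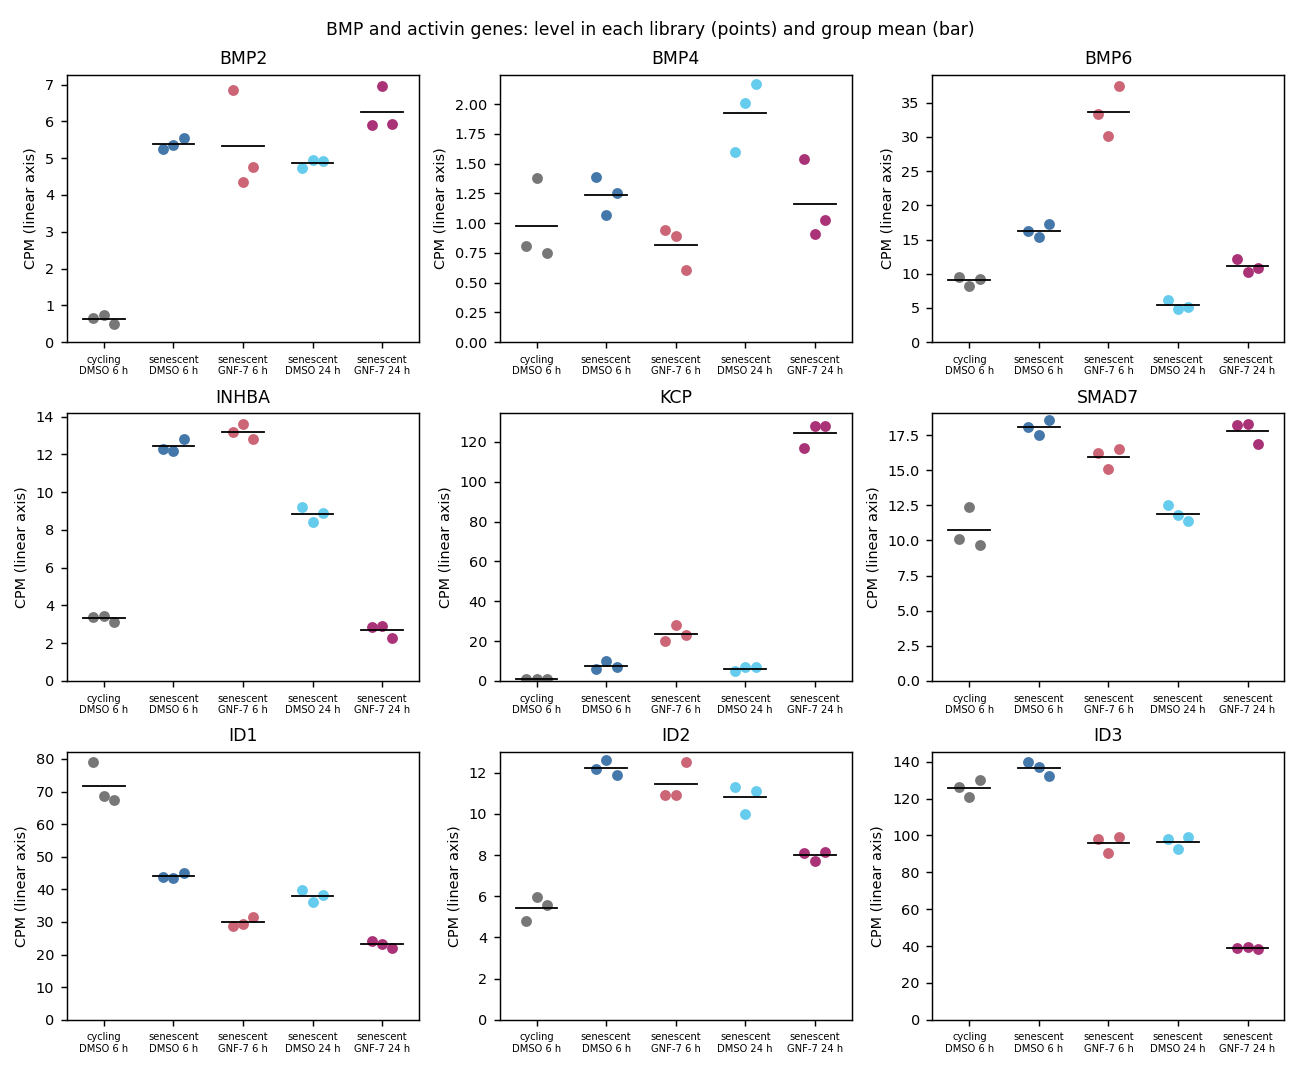
Level of 9 genes in CPM (vertical axes, linear, each from 0) in each of the 15 libraries (points) with the group mean (bar), for the 5 groups along the horizontal axes. The KCP libraries of GNF-7 at 24 h lie at 117 to 128 CPM, apart from all others, and those of ID1 fall into 5 groups that do not overlap.

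The stretches before the transcription starts of KCP and BMP6, which rose with GNF-7 at both times, and of INHBA and ID1, which were lowest in GNF-7 at 24 h, are shown to place these genes side by side. They are RefSeq promoter windows of 250 bases on GRCh38.p14, printed 5′ to 3′ on the strand of the gene, and end at the base before the start. KCP is at chr7:128910710-128910959 (minus strand), BMP6 at chr6:7725849-7726098 (plus), INHBA at chr7:41703091-41703340 (minus) and ID1 at chr20:31605039-31605288 (plus). Capitals mark matches on either strand to TATAAA (the TATA box), CCAAT (the CCAAT box) and GGGCGG (the GC box), which may overlap.
KCP: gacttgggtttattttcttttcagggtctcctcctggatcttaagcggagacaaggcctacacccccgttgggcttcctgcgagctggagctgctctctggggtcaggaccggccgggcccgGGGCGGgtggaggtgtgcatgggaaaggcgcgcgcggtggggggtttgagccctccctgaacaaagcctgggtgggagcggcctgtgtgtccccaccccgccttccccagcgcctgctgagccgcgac
BMP6: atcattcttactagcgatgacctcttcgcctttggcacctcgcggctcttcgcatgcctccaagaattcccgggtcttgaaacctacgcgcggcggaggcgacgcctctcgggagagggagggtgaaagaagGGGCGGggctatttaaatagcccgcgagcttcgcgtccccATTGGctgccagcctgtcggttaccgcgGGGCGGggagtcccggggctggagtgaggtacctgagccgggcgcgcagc
INHBA: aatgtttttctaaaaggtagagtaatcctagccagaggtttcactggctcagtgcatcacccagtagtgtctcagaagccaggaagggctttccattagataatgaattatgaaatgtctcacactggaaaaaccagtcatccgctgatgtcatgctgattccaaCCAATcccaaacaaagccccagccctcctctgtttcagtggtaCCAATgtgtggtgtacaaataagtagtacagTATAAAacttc
ID1: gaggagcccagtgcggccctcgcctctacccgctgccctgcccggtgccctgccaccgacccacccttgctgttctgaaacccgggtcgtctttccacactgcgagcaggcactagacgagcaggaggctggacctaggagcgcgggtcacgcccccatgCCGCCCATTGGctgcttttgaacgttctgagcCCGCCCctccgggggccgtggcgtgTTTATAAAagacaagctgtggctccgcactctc
Positions are counted from the start back to the first printed base of a match. The ID1 window held TATAAA matches 33 and 31 bases before the start, CCAAT at 84 and GGGCGG at 90 and 58. INHBA had TATAAA at 11 and CCAAT at 85 and 42 in a window of 42.8% G and C. BMP6 had CCAAT at 78 and GGGCGG at 118 and 50, and the KCP window held GGGCGG at 128 alone of these motifs. Of 35116 promoters of this length, 10.7% held TATAAA, 32% CCAAT and 42.6% GGGCGG. None of the 4 windows held GGCGCC, a GC-rich element bound by SMAD1 and SMAD5 (16.4% of promoters), GTCTAGAC, the SMAD3 and SMAD4 palindrome (0.182%), or the amino acid response elements TGATGCAA (0.772%) and TGATGNAA (3.14%). TGACGTCA, the cyclic AMP response element (1.65%), CACGTG, the E-box (6.34%), and CAGAC, the short SMAD box (38%), were not there either. These are letter matches in short windows, and windows were found for 9 of the 10 genes (14 windows in all), with none for BMP2. Among the windows not printed, GGCGCC was in those of BMP4 and GREM1, CAGAC in those of BMP4, GREM1, SMAD7 and ID3, and CACGTG in 1 of BMP4.

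BMP2 (chromosome 20, 6767664 to 6780280, plus strand, GRCh38 with GENCODE 29) encodes a BMP ligand known for inducing bone. Its levels were 0.644, 0.723 and 0.490 CPM in the cycling libraries and 5.26, 5.37 and 5.55 CPM in senescent cells in DMSO at 6 h. GNF-7 for 6 h gave 6.84, 4.35 and 4.77 CPM, a range that spans the DMSO libraries. Every senescent library was above every cycling library. At 24 h the values were 4.72, 4.94 and 4.91 CPM in DMSO and 5.91, 6.95 and 5.94 CPM with GNF-7, and these groups did not overlap. BMP2 rose in senescence by a log2 fold change of 3.12 (SE 0.21), or 8.71-fold. With GNF-7 the log2 fold change was -0.02 (95% interval -0.32 to 0.28) at 6 h, and BMP2 rose by 0.37 (SE 0.15) at 24 h. The 24 h call was lost without DMSO replicate 1, 2 or 3 (0.34, 0.38 and 0.37) and without GNF-7 replicate 2 (0.29). Between the times the GNF-7 effect on BMP2 differed by 0.39 (interval -0.04 to 0.81), short of a call. Leaving out the GNF-7 library of replicate 1 at 6 h made it one (0.61).

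BMP4 (chromosome 14, 53949736 to 53958761, minus strand), a ligand close to BMP2 in sequence, stayed between 0.605 and 2.17 CPM. Its counts ran from 19 to 57 per library, so its values carry wide counting error. Cycling libraries had 0.804, 1.38 and 0.751 CPM and senescent DMSO libraries at 6 h 1.39, 1.07 and 1.25 CPM, which overlapped. With GNF-7 for 6 h it was at 0.940, 0.891 and 0.605 CPM, below the 3 DMSO libraries, but the log2 fold change of -0.61 (interval -1.23 to 0.02) was not called. DMSO at 24 h gave 1.60, 2.01 and 2.17 CPM, above all other libraries, and GNF-7 at 24 h 1.54, 0.909 and 1.03 CPM. BMP4 fell by 0.73 on the log2 scale (SE 0.29) with GNF-7 at 24 h. That call was lost without DMSO replicate 2 (-0.70) or 3 (-0.64) and without GNF-7 replicate 2 (-0.58) or 3 (-0.65). With time in DMSO the log2 fold change of 0.63 (interval 0.06 to 1.20) was not called, and in senescence it was 0.33 (interval -0.28 to 0.95).

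BMP6 (chromosome 6, 7726797 to 7881422, plus strand) encodes a ligand best known as the signal for hepcidin in iron metabolism. It was at 9.57, 8.23 and 9.24 CPM in cycling cells and at 16.3, 15.3 and 17.3 CPM in senescent cells in DMSO at 6 h. GNF-7 for 6 h gave 33.3, 30.2 and 37.5 CPM, the highest group. At 24 h the libraries had 6.13, 4.90 and 5.15 CPM in DMSO and 12.2, 10.2 and 10.9 CPM with GNF-7. No 2 of the 5 groups overlapped, and DMSO at 24 h was below cycling cells. BMP6 rose in senescence by a log2 fold change of 0.85 (SE 0.098). The rise with GNF-7 was 1.05 (SE 0.087) at 6 h and 1.03 (SE 0.11) at 24 h, or 2.07-fold and 2.05-fold. Those effects differed by -0.01 (interval -0.30 to 0.27). In DMSO the gene fell by 1.59 on the log2 scale (SE 0.10), or 3.01-fold, from 6 h to 24 h. It ranked 18 by size of change among the genes called lower with time in vehicle. Cells treated for 24 h had less BMP6 than untreated senescent cells at 6 h.

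INHBA (chromosome 7, 41667168 to 41705834, minus strand) encodes the beta A subunit, and a dimer of it is activin A. Its levels were 3.38, 3.44 and 3.10 CPM in cycling cells and 12.3, 12.2 and 12.8 CPM in senescent cells in DMSO at 6 h. Libraries of GNF-7 at 6 h overlapped the latter, with 13.2, 13.6 and 12.8 CPM. DMSO at 24 h gave 9.22, 8.43 and 8.90 CPM and GNF-7 at 24 h 2.84, 2.92 and 2.29 CPM. All 3 GNF-7 libraries at 24 h were below the lowest cycling library. INHBA rose in senescence by 1.91 (log2, SE 0.12), or 3.76-fold. With GNF-7 it had a log2 fold change of 0.08 (interval -0.13 to 0.29) at 6 h and fell by 1.72 on the log2 scale (SE 0.13), or 3.29-fold, at 24 h. The difference between these effects was -1.80 (SE 0.17). In DMSO it fell by 0.49 (SE 0.11) from 6 h to 24 h.

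GREM1 (chromosome 15, 32717974 to 32745107, plus strand), the gene of gremlin, a secreted antagonist of BMP2 and BMP4, was close to absent. Counts were 0, 0 and 0 in cycling cells, 0, 0 and 2 and then 0, 1 and 0 in senescent cells in DMSO at 6 h and 24 h, and 2, 2 and 8 and then 0, 1 and 0 with GNF-7. A library with 0 counts could hold up to 3, or 0.0947 to 0.121 CPM by library. The library with 8 counts reached 0.255 CPM, and at this depth no fold change is given. A lincRNA on the other strand, AC090877.2, shares 188 of its exon bases.

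KCP (chromosome 7, 128862451 to 128910719, minus strand) encodes a secreted protein with cysteine-rich repeats like those of chordin, known to enhance BMP signalling and to dampen activin and TGF-beta signalling. In cycling cells it was at 0.845, 0.998 and 0.783 CPM. Senescent cells in DMSO had 5.86, 9.95 and 6.97 CPM at 6 h and 4.82, 6.88 and 6.81 CPM at 24 h, which overlapped. With GNF-7 it was at 19.9, 28.1 and 23.2 CPM after 6 h and at 117, 128 and 128 CPM after 24 h. Cycling, DMSO and both GNF-7 groups were otherwise apart, in that order. KCP rose by 3.12 (log2, SE 0.34) in senescence. The rise with GNF-7 was 1.64 (SE 0.18), or 3.11-fold, at 6 h and 4.35 (SE 0.18), or 20.4-fold, at 24 h. The difference between them was 2.71 (SE 0.27). With time in DMSO the log2 fold change was -0.32 (interval -0.81 to 0.18). KCP shares 3.5% of its exon bases with other genes, 187 of them with ATP6V1F on the other strand and 102 with FLNC-AS1 on its own. Whether counting used strand is not given in the sources used here. ATP6V1F was at 91.9 CPM in DMSO and 109 CPM with GNF-7 at 24 h (log2 fold change 0.24), against the rise of 4.35 in KCP. FLNC-AS1 had 0, 0 and 0 counts in DMSO and 8, 9 and 12 with GNF-7 at 24 h, where KCP had 3509, 3956 and 3869.

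SMAD7 (chromosome 18, 48919853 to 48952052, minus strand) encodes the inhibitory SMAD that blocks both receptor branches. It was at 10.1, 12.4 and 9.66 CPM in cycling cells and 18.1, 17.5 and 18.6 CPM in senescent cells in DMSO at 6 h. GNF-7 at 6 h gave 16.2, 15.1 and 16.5 CPM, below each of these DMSO libraries, but the log2 fold change of -0.18 (interval -0.36 to -0.01) was not called. At 24 h the values were 12.5, 11.8 and 11.4 CPM in DMSO, which overlapped cycling cells, and 18.2, 18.3 and 16.9 CPM with GNF-7. SMAD7 rose by 0.76 (SE 0.091) in senescence and by 0.58 (SE 0.089) with GNF-7 at 24 h. In DMSO it fell by 0.60 on the log2 scale (SE 0.089) from 6 h to 24 h. The GNF-7 effect was 0.76 higher at 24 h than at 6 h (SE 0.12). Its levels with GNF-7 at 24 h overlapped those of DMSO at 6 h.

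ID1 (chromosome 20, 31605283 to 31606515, plus strand) was the only one of the 9 genes called lower in senescence. Cycling libraries had 79.2, 68.5 and 67.5 CPM and senescent libraries in DMSO 43.9, 43.4 and 44.9 CPM at 6 h and 39.7, 36.1 and 38.4 CPM at 24 h. With GNF-7 it was at 28.8, 29.4 and 31.4 CPM after 6 h and 24.2, 23.4 and 22.0 CPM after 24 h. The 5 groups did not overlap, in the falling order cycling, DMSO 6 h, DMSO 24 h, GNF-7 6 h and GNF-7 24 h. ID1 fell in senescence with a log2 fold change of -0.70 (SE 0.057), and with GNF-7 with -0.56 (SE 0.061) at 6 h and -0.71 (SE 0.063) at 24 h. Those GNF-7 effects differed by -0.15 (interval -0.33 to 0.02). In DMSO it fell by 0.21 (SE 0.060) with time, a call that was lost without DMSO 24 h replicate 2 (-0.17).

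ID3 (chromosome 1, 23557918 to 23559794, minus strand), which like ID1 encodes an inhibitor of E proteins, was at 126, 121 and 130 CPM in cycling cells and at 140, 137 and 132 CPM in senescent cells in DMSO at 6 h. GNF-7 at 6 h gave 97.9, 90.6 and 99.0 CPM and overlapped DMSO at 24 h, with 98.3, 92.6 and 99.1 CPM. GNF-7 at 24 h gave 39.0, 39.4 and 38.3 CPM, far below every other library. ID3 rose by 0.12 (SE 0.042) in senescence, and this call was lost without cycling replicate 2 (0.09) or senescent DMSO 6 h replicate 1 (0.10). With GNF-7 it fell, with log2 fold changes of -0.51 (SE 0.043) at 6 h and -1.31 (SE 0.047), or 2.48-fold, at 24 h. The difference between these effects was -0.80 (SE 0.063). With time in DMSO it fell by 0.50 (SE 0.043).

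ID2 (chromosome 2, 8678845 to 8684453, plus strand), the third measured member of the ID family, was at 4.79, 5.96 and 5.58 CPM in cycling cells. Senescent cells had 12.2, 12.6 and 11.9 CPM in DMSO and 10.9, 10.9 and 12.5 CPM with GNF-7 at 6 h, which overlapped. At 24 h the values were 11.3, 10.0 and 11.1 CPM in DMSO and 8.12, 7.70 and 8.13 CPM with GNF-7, which did not overlap and were all above cycling cells. ID2 rose by 1.17 (SE 0.11) in senescence, where ID1 fell. With GNF-7 its log2 fold change was -0.10 (interval -0.31 to 0.10) at 6 h, and it fell by 0.43 (SE 0.11) on the log2 scale at 24 h. The difference between the times was -0.33 (interval -0.63 to -0.03) and was not called. With time in DMSO ID2 had -0.19 (interval -0.39 to 0.02), which was called only with libraries scaled by total counts (-0.30). ID2 shares 38 exon bases with ID2-AS1 on the other strand, which was at 1.56 CPM in DMSO and 4.93 CPM with GNF-7 at 24 h.

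**Figure D2:**
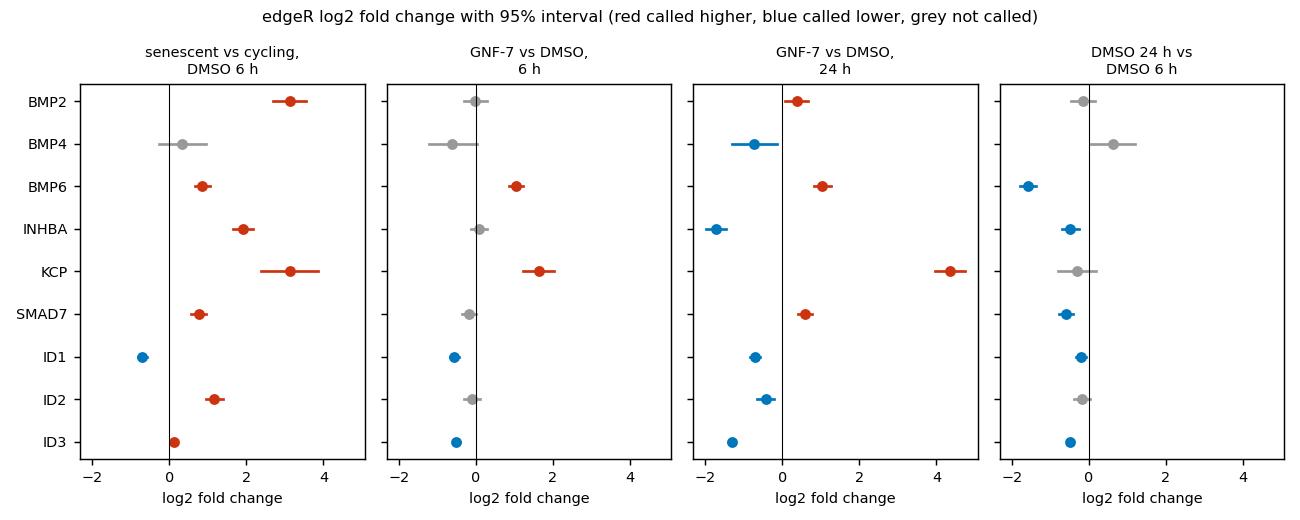
edgeR log2 fold change (horizontal axes) with its 95% interval for 9 genes (rows) in 4 comparisons (panels); red was called higher, blue lower and grey not called. KCP reaches 4.35 with GNF-7 at 24 h, where INHBA and ID3 lie at -1.72 and -1.31.

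The test of whether GNF-7 acted differently at 24 h than at 6 h called 4 of the 9 genes (KCP and SMAD7 higher, INHBA and ID3 lower), beside 30.8% of all genes (12.8% higher, 18.0% lower). Senescent cells with GNF-7 at 6 h were also set against cycling cells. Of the 9 genes 6 were called higher and 2 lower there, beside 75.7% of all genes (39.6% higher, 36.1% lower). KCP was 27.0-fold higher than in cycling cells and BMP6 3.74-fold higher, while ID1 was 2.40-fold lower and ID3 1.31-fold lower. BMP4 had a log2 fold change of -0.27 (interval -0.92 to 0.37) and was not called.

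Per kilobase of exon, ID3 and ID1 were the highest of the 10 genes in all 5 groups, with mean levels of 69.8 and 58.2 CPM per kb in cycling cells and 21.7 and 18.8 CPM per kb with GNF-7 at 24 h. ID2 lay at 2.47 to 5.56 CPM per kb over the groups. Among the ligands BMP6 was the highest in each group, from 1.94 CPM per kb in DMSO at 24 h to 12.1 CPM per kb with GNF-7 at 6 h. INHBA ran from 0.323 to 1.59 CPM per kb, BMP2 from 0.172 to 1.74 and BMP4 from 0.263 to 0.624. KCP moved from 0.106 CPM per kb in cycling cells to 15.1 CPM per kb with GNF-7 at 24 h, near the ID1 level of that group. SMAD7 stayed between 2.13 and 3.59 CPM per kb.

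The rest of the pathway was described from 10 lists that hold none of the genes above. Of their 106 genes 76 were tested. The lists were drawn up with earlier results of these data known, and genes are named by size of change among those called. The p-values printed for these genes are thus no independent support. In senescence 36 were called higher and 28 lower (84.2% against 70.0% of all genes), with GNF-7 at 6 h 13 higher and 35 lower (63.2% against 39.3%) and with GNF-7 at 24 h 17 higher and 36 lower (69.7% against 58.9%). The median log2 fold change over the lists was 0.17, -0.15 and -0.23 in these comparisons, beside 0.06, 0.01 and 0.04 over all genes. With time in DMSO 9 were higher and 18 lower (35.5% against 18.5%), and with total-count scaling 39 were called. That the lists differ from all genes was not tested.

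**Figure D3:**
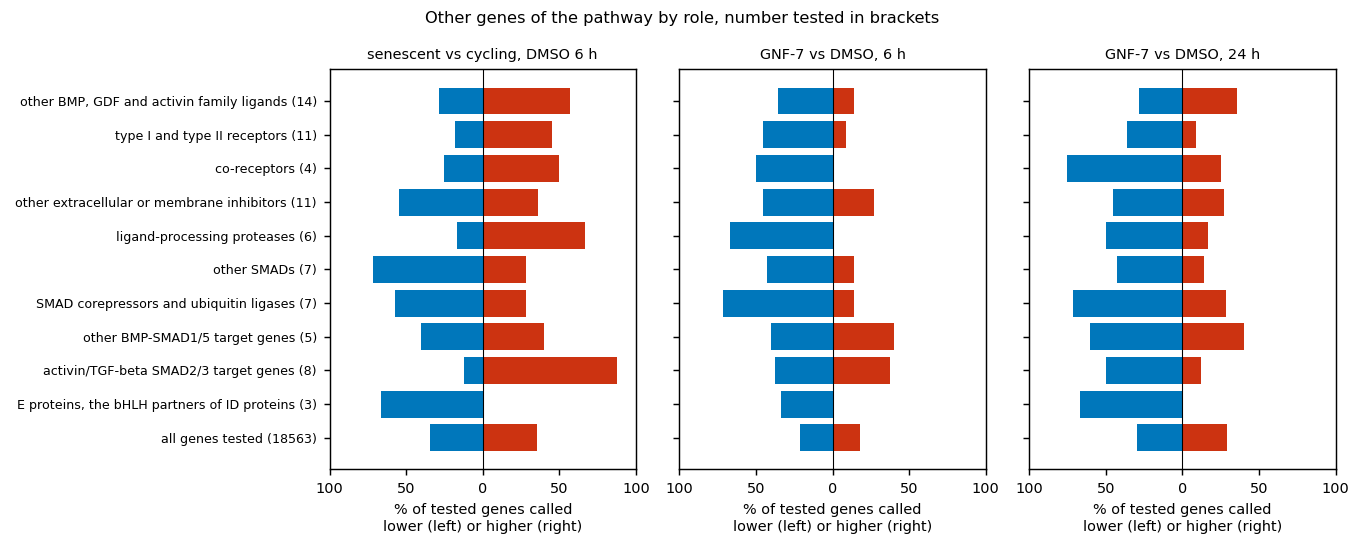
Percent of the tested genes of each list (rows, with all genes tested for comparison) called higher (red, to the right) or lower (blue, to the left) by edgeR in 3 comparisons (panels). With GNF-7 at 24 h, 5 of 7 corepressor and ubiquitin ligase genes and 5 of 11 inhibitor genes were called lower, beside 29.7% of all genes.

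Of 28 other ligand genes 14 were tested. In senescence 8 rose and 4 fell, with GNF-7 at 6 h 2 rose and 5 fell, and at 24 h 5 rose and 4 fell. The genes called were thus 12, 7 and 9 of 14, beside 70.0%, 39.3% and 58.9% of all genes. INHBE, the inhibin beta E subunit, was at 3.01 ± 0.319 CPM in cycling cells and at 0.261 ± 0.106 and 0.181 ± 0.102 CPM in DMSO at 6 h and 24 h (n = 3 each). GNF-7 gave 3.22 ± 0.211 and 7.40 ± 0.611 CPM at these times. It fell in senescence (log2 fold change -3.49, SE 0.28, edgeR adjusted p = 3.46e-17) and rose with GNF-7 by 3.58 at 6 h (SE 0.28, adjusted p = 4.57e-17) and 5.36 at 24 h (SE 0.28, adjusted p = 1.48e-25). The DMSO values rest on counts of 2 to 12 per library. INHA, the inhibin alpha subunit, which pairs with a beta subunit to oppose activin, rose by 3.64 in senescence (SE 0.36, edgeR adjusted p = 4.66e-14) and by 1.00 with GNF-7 at 6 h (SE 0.20, adjusted p = 4.4e-05). Its cycling level of 0.146 ± 0.0715 CPM was near the floor of a 0 count, so the size of the first rise is uncertain. TGFB2 and TGFB3, ligands of the TGF-beta receptors, also fell with GNF-7. TGFB3 rose by 1.00 in senescence and fell with GNF-7, with log2 fold changes of -0.91 at 6 h and -2.10 at 24 h (edgeR adjusted p = 4.65e-24 at 24 h). TGFB2 had 0.25, -0.68 and -1.79 in the same comparisons (edgeR adjusted p = 1.47e-27 at 24 h), and its call in senescence was lost without senescent DMSO 6 h replicate 1 (0.15, adjusted p = 0.0855).

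Receptor genes gave 11 tested of 12. Of these 5 rose and 2 fell in senescence. GNF-7 raised 1 and lowered 5 at 6 h and raised 1 and lowered 4 at 24 h. The called shares were 63.6%, 54.5% and 45.5%, beside 70.0%, 39.3% and 58.9% of all genes. BMPR2, the type II receptor of BMPs, was at 72.3 ± 4.08 CPM in DMSO and 45.3 ± 3.17 CPM with GNF-7 at 24 h, a fall of 0.68 on the log2 scale (SE 0.056, edgeR adjusted p = 4.02e-16). BMPR1A, a type I receptor of BMPs, fell in all 3 comparisons, with log2 fold changes of -0.61 in senescence and -0.35 and -0.52 with GNF-7 at 6 h and 24 h (edgeR adjusted p = 3.64e-12, 4.07e-05 and 5.11e-09). TGFBR2, the type II receptor of TGF-beta, rose by 0.46 in senescence and fell by 0.86 with GNF-7 at 24 h (edgeR adjusted p = 6.57e-15 and 4.57e-25). Among co-receptors 4 of 7 were tested. NEO1 (neogenin) rose by 1.44 in senescence and by 0.98 with GNF-7 at 24 h, while ENG (endoglin) fell by 0.67 at 24 h (edgeR adjusted p = 2.09e-21, 2.32e-16 and 3.07e-22).

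Other inhibitors outside the cell or in its membrane gave 11 tested genes of 19. Of these, 4 rose and 6 fell in senescence, 3 rose and 5 fell with GNF-7 at 6 h, and 3 rose and 5 fell at 24 h. The called shares were 90.9%, 72.7% and 72.7%, beside 70.0%, 39.3% and 58.9% of all genes. FST (follistatin), which binds activin, was at 101 ± 5.22 CPM in cycling cells, 25.7 ± 0.991 CPM in DMSO and 66.9 ± 1.04 CPM with GNF-7 at 6 h. At 24 h it was at 17.5 ± 1.62 CPM in DMSO and 18.2 ± 1.5 CPM with GNF-7. FST fell by 1.97 on the log2 scale in senescence, rose by 1.38 with GNF-7 at 6 h and had 0.05 at 24 h (edgeR adjusted p = 1.76e-38, 3.47e-29 and 0.592). Its GNF-7 effect differed between the times by -1.33 (SE 0.092, edgeR adjusted p = 5.36e-19). BAMBI, a decoy receptor without a kinase, was at 7.88 ± 1.63 CPM in cycling cells and 62.4 ± 4.93 CPM in senescent cells in DMSO at 6 h. It rose by 3.00 in senescence and by 0.86 and 0.92 with GNF-7 at 6 h and 24 h (edgeR adjusted p = 4.91e-14, 1.53e-07 and 3.14e-08). NOG (noggin), a secreted BMP antagonist, fell in all 3 comparisons, with log2 fold changes of -0.74, -1.12 and -1.12 (edgeR adjusted p = 2.92e-06, 1.61e-07 and 3.37e-08). FSTL1 and CRIM1 fell with GNF-7 at 24 h, with log2 fold changes of -1.21 and -1.06 (edgeR adjusted p = 1.5e-33 and 5.58e-29).

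**Figure D4:**
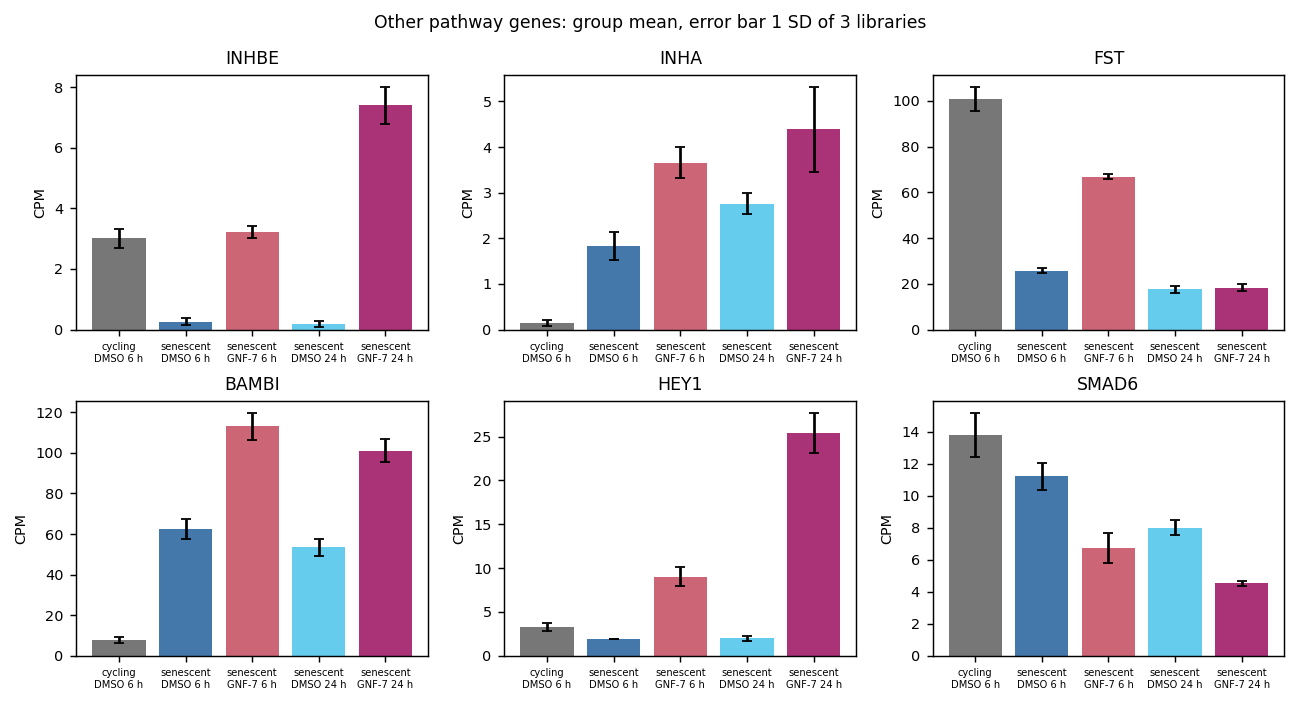
Group mean in CPM (bars) with the SD over 3 libraries (error bars) for 6 pathway genes outside the 10, picked for display from the genes named by rule. FST is high in cycling cells and with GNF-7 at 6 h, INHBE is near 0 in both DMSO senescent groups, and HEY1 reaches 25.4 CPM on average with GNF-7 at 24 h.

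Of 6 tested proteases that process the ligands, 4 rose and 1 fell in senescence, none rose and 4 fell with GNF-7 at 6 h, and 1 rose and 3 fell at 24 h. The called shares were 83.3%, 66.7% and 66.7%, beside 70.0%, 39.3% and 58.9% of all genes. FURIN, which cleaves ligand precursors, fell from 203 ± 5.19 CPM in DMSO to 80.1 ± 3.17 CPM with GNF-7 at 24 h (log2 fold change -1.34, SE 0.041, edgeR adjusted p = 2.89e-37) and fell by 0.65 at 6 h (adjusted p = 1.38e-21). TLL2, a protease of the BMP1 family, rose by 3.25 in senescence and by 1.64 with GNF-7 at 24 h (edgeR adjusted p = 1.6e-18 and 1.34e-14). All 7 other SMADs were called in senescence, 2 higher and 5 lower, beside 70.0% of all genes. SMAD1 and SMAD4 fell there by 0.69 and 0.66 on the log2 scale (edgeR adjusted p = 2.54e-11 and 1.04e-17). SMAD3 rose by 0.41 there and fell with GNF-7, with -0.66 at 6 h and -0.99 at 24 h (edgeR adjusted p = 7.83e-16, 6.48e-24 and 5.17e-33). SMAD6, the inhibitory SMAD of the BMP branch, fell with -0.73 at 6 h and -0.82 at 24 h (edgeR adjusted p = 3.05e-07 and 6.22e-08), where SMAD7 had -0.18 and 0.58. Of 7 corepressors and ubiquitin ligases, 2 rose and 5 fell with GNF-7 at 24 h, beside 58.9% of all genes called. TGIF1, a corepressor, rose by 1.41 and 1.56 at 6 h and 24 h and SMURF2, a ligase for SMADs and receptors, fell with -0.75 and -0.79 (edgeR adjusted p = 1.76e-34, 8.69e-37, 2.42e-21 and 5.36e-23).

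Other genes known as BMP targets did not all go with the ID genes. Of 8, 5 were tested, and ID4 was not among them. With GNF-7 at 24 h 2 rose and 3 fell, beside 58.9% of all genes called. HEY1, also a target of Notch, was at 1.98 ± 0.314 CPM in DMSO and 25.4 ± 2.30 CPM with GNF-7 at 24 h. It rose by 2.22 at 6 h and 3.67 at 24 h (SE 0.14 each, edgeR adjusted p = 1.49e-20 and 3.91e-33). MSX1 also rose, by 0.54 and 0.51 (edgeR adjusted p = 3.78e-07 and 1.64e-06). ATOH8, RUNX2 and MSX2 fell at 24 h, with log2 fold changes of -2.24, -0.49 and -0.37 (edgeR adjusted p = 8.07e-08, 7.74e-09 and 0.00894). ATOH8 was then at only 0.376 ± 0.186 CPM with GNF-7, so the size of its fall rests on low counts. All 8 genes known as targets of activin and TGF-beta were called in senescence, 7 higher and 1 lower, beside 70.0% of all genes. PMEPA1 rose there by 2.61 (edgeR adjusted p = 3.38e-31). CCN2 was the gene called lower, at 352 ± 15.9 CPM in cycling cells and 243 ± 12.7 CPM in DMSO at 6 h. With GNF-7 at 6 h 3 rose and 3 fell, or 75.0% beside 39.3% of all genes. With GNF-7 at 24 h 1 rose and 4 fell, or 62.5% beside 58.9% of all genes. TGFBI and CCN2 had log2 fold changes of -1.76 and -2.25 (edgeR adjusted p = 9.17e-34 and 2.64e-19). PMEPA1 did not move at 24 h, with 28.2 ± 3.95 CPM in DMSO and 28.1 ± 1.81 CPM with GNF-7.

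The E proteins, to which ID proteins bind, were 3 genes and all were tested. TCF3 and TCF12 fell in senescence with log2 fold changes of -0.72 and -0.79 (edgeR adjusted p = 2.3e-24 and 6.14e-23), and TCF4 had -0.07 (adjusted p = 0.479). With GNF-7 at 24 h TCF4 fell by 1.60 (SE 0.10, edgeR adjusted p = 6.87e-22), from 15.7 ± 0.558 to 5.18 ± 0.409 CPM. At 6 h it had 0.13 (edgeR adjusted p = 0.226), and the difference between the times was -1.73 (SE 0.13, adjusted p = 2.63e-17).

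The genes whose profile was most like that of each gene were taken by the root mean square difference of centred log2 CPM over the 15 libraries, among 13479 genes. This is a description, since the libraries fall into 5 groups. HSPH1, SIX2 and WDCP were closest to ID1 (0.0905, 0.093 and 0.0944) and ADGRG1, SLC39A10 and FRMD6 to ID3 (0.109, 0.115 and 0.136). For INHBA the closest were PDE7B, PGM2L1 and PLPP3 (0.254, 0.264 and 0.311), and for BMP6 GRAMD1B (0.239). Closest to KCP were ATP6V0D2, VIP and TMPRSS9 (0.494, 0.502 and 0.514). For scale, libraries varied about the group means by 0.0638 in ID1 and 0.209 in KCP on the same scale.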

How the data were processed

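Per the labels' protocols, RNA of the cells was made into libraries with a stranded mRNA kit. The authors deposited raw read counts per Ensembl gene in 1 table of 15 libraries. Per the submitters' processing notes, bcl2fastq 2.20.0.422, STAR 2.7.9a and featureCounts 1.5.1 were used with GRCh38. The annotation release and the strand setting are not given in the sources used here. Of 60673 rows, 3 that make up 1 broken entry (ANK2) were left out, and 60400 of 60670 identifiers had a symbol.

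Counts of all 15 libraries were fitted with the edgeR quasi-likelihood test (4.0.16, R 4.3.3, robust), with TMM scaling, filterByExpr, a term per group and Benjamini-Hochberg adjustment over 18563 genes. CPM is TMM-scaled, SD is over 3 libraries, and the SE is the log2 fold change divided by the root of F. The biological coefficient of variation was 4.64%. P-values set a difference against the spread between libraries within groups, estimated over all 15 libraries, and floors cover counting error only. In simulated counts of 16923 genes for GNF-7 at 24 h, edgeR recovered 193 of 200 genes changed 2-fold with 14 false calls. Those counts had the same dispersion for every gene and few changes, balanced up and down and kept to genes with enough counts. The data differ in this, so the simulation checks the fitting steps and not the calls made here.

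The 10 genes, the pathway lists and the naming rule were chosen with earlier results of these data known. From each list the rule names, per comparison, up to 2 called genes with the largest change among those with a mean of at least 1 CPM. A gene named in 1 comparison is also given in others, and some genes that the rule names are not reported here. MSX2, RUNX2, ID4 and the 3 E proteins account for counts of 5 or fewer. Alternatives in scaling were total counts, size factors by the RLE method of edgeR, and mitochondrial genes left out. The others were 2 filters, the tests of DESeq2 (1.42.0) and limma voom (3.58.1), a replicate block, only the groups compared, and leaving out each library. Promoter windows were searched for 5 motifs, and for 5 more (the TATA, CCAAT and GC boxes, the short SMAD box and a looser amino acid response element) added after the first had been searched. Gene positions are from GENCODE 29, and windows from RefSeq. Replicate numbers come from the labels, which do not say what they mark. Deviations of same-numbered libraries correlated at 0.154, 0.12 and 0.11 between DMSO and GNF-7 at 24 h, so the numbers may pair that comparison. Over all groups, pairs with different numbers reached 0.172, and pairing was not tested. In each of the other comparisons of 2 groups at least 1 pair was not over 0.1. The 2 GNF-7 groups, which both enter the difference between the times, correlated at 0.254, 0.244 and 0.126. The main fit took no account of the numbers. Library pairs within a group differed by more than sampling noise.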

Additional observations from a re-analysis of the deposited data

Results flagged for a closer look

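Values are the effect of GNF-7 at 24 h minus that at 6 h on the log2 scale. The pathway genes are given because this difference was called. They were picked by size of change from lists drawn up with earlier results known, so their p-values are no independent support. Of the 10 genes, which were listed with the KCP difference already known, 4 are given as a description. INHBA had -1.80, KCP 2.71, SMAD7 0.76 and ID3 -0.80. INHBA was not called at 6 h and lower at 24 h, SMAD7 was not called at 6 h and higher at 24 h, and KCP and ID3 went the same way at both times.

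Of the ligands, INHBE had 1.78 and TGFB3 -1.19 (edgeR adjusted p = 0.00547 and 8.75e-09). The INHBE call was lost without senescent DMSO 6 h replicate 2 (1.40, adjusted p = 0.0866) and without senescent DMSO 24 h replicate 1 (1.34, adjusted p = 0.0518). Receptors and co-receptors were ACVRL1 with -1.14, TGFBR2 with -0.60, NEO1 with 0.98 and TGFBR3 with -0.53 (edgeR adjusted p = 0.013, 1.54e-12, 2.77e-10 and 1.41e-05). The ACVRL1 call was lost without senescent DMSO 24 h replicate 2 (-0.98, adjusted p = 0.0513). Inhibitors were FST with -1.33 and CRIM1 with -0.97, and proteases TLL2 with 1.55 and FURIN with -0.70 (edgeR adjusted p = 5.36e-19, 3.54e-20, 6.57e-08 and 5.21e-16).

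Inside the cell, SMAD2 had -0.59, SMAD3 -0.33, SKIL -0.56 and NEDD4L -0.55 (edgeR adjusted p = 8.51e-13, 3.61e-07, 3.22e-07 and 1.27e-13). SMAD2 rose by 0.72 at 6 h and by 0.13 at 24 h, while SMAD3 fell at both times. The SMAD2 call at 24 h was lost without senescent DMSO 24 h replicate 2 (0.09, edgeR adjusted p = 0.0869). Among targets ATOH8 had -1.59, HEY1 1.45 and TGFBI -1.59 (edgeR adjusted p = 0.00453, 7.79e-08 and 6.37e-24). The E proteins TCF4 and TCF3 had -1.73 and 0.18 (edgeR adjusted p = 2.63e-17 and 0.0115).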

How the results depend on the processing

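The results of the 9 genes, the counts of called genes, TERF2 and the printed results of pathway genes were recomputed under 24 alternatives. Of 54 results of the 9 genes, 43 kept their direction and their side of the threshold throughout, and 1258 of 1284 values did. The counts of all genes, of the 9 genes and of pathway genes called stayed within 1.5 times of the values reported in every alternative. Without each library in turn, the 9 genes gave 7 to 8 calls in senescence, 4 with GNF-7 at 6 h and 7 to 9 at 24 h, 4 to 5 for the difference between the times, 4 to 5 with time in DMSO and 8 for GNF-7 at 6 h against cycling cells.

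No result that changed sign was called. For BMP6, the difference of the GNF-7 effects became 0.000408 with total counts and 0.0336 with a mean of at least 5 CPM, and ran from -0.0929 to 0.0909 over the fits that left out a library. In those fits BMP2 with GNF-7 at 6 h ran from -0.242 to 0.119, BMP4 with GNF-7 at 6 h against cycling cells from -0.449 to 0.0555, and the BMP4 difference between the times from -0.376 to 0.0276. BMP2 at 24 h was also not called with no filter (0.35). Of the pathway genes, TCF4 in senescence became 0.0649 with total counts and 0.0832 with a mean of at least 5 CPM and ran from -0.133 to 0.003 over the fits that left out a library, and FST with GNF-7 at 24 h ran from -0.0119 to 0.12. The filter at a mean of 5 CPM removed BMP2 and BMP4 and ended the MSX2 call at 24 h (-0.27, edgeR adjusted p = 0.0533). The causes were not tested.

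Scaling by total counts shifted the median of all genes from 0.009 to -0.102 with time in DMSO, where 12.5% of 5019 called genes were higher in place of 49.9% of 3443. In senescence it moved the median from 0.062 to 0.195.

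Over all groups, deviations of libraries with the same replicate number correlated at -0.141 to 0.254 (12 of 30 pairs over 0.1, against 3 of 60 pairs with different numbers), and 8 of 15 libraries correlated best with their own number. With a replicate block, 13032 genes were called in senescence, 7481 and 11031 with GNF-7 at 6 h and 24 h, 5921 for the difference and 3711 with time in DMSO, against 12999, 7286, 10940, 5723 and 3443. For GNF-7 at 24 h, where the numbers may pair the libraries, the block changed no call among the 9 genes or the printed pathway genes. The same held for the difference between the times. KCP with time in DMSO was called under the block (-0.31). Counts of BMP4, GREM1 and INHBE were too low for small differences to be detected at this depth.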
